A study of Mus musculus with 10 samples.

Results

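Collagen is synthesized as procollagen in the endoplasmic reticulum, modified there, and trimmed once it has left the cell. The genes described are the 10 that carry out the hydroxylation, folding and trimming steps: P4ha1, P4ha2, P4ha3, P4hb, Plod1, Plod2, Plod3, Serpinh1, Pcolce and Bmp1. They were chosen by gene symbol, from the 19942 distinct symbols of the array. All 10 genes had a probe, and P4ha2 had 3, which gives 12 probes of 26423.

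Left-ventricle mRNA of male C57BL/6J mice operated at 8 weeks of age was measured after transverse aortic banding (TAB), a constriction of the aorta that overloads the left ventricle with pressure, or after a sham operation. Hearts were taken 3, 5 and 7 days (called early) and 14 and 28 days (called late) after each operation, which makes 10 samples, 1 for each day of each operation. The mice carried no engineered allele and received no other agent that the labels name. The sources used here do not say how many mice a sample held, the banded heart titled day 14 is called day 15 in another of its labels and was used as day 14, and a single day has no replicate check.

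The median raw intensity of an array lay between 34 and 55 in TAB and between 42 and 57 in sham. Spots that the scanner software did not find, taken from a negative flag, made up 40.8% to 47.3% of the probes in TAB and 40.2% to 45.4% in sham. The share of probes with a deposited detection p-value under 0.05 was 38.6% in sham of day 7 and 38.0% in sham of day 28, against 18.8% to 23.5% on the other 8 arrays. All 12 cardiomyocyte markers tested, such as Myh6 and Tnnt2 were found on all 10 arrays. In the array numbering of the files the TAB arrays precede the sham arrays, so array order and operation cannot be told apart.

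Procollagen chains are hydroxylated on proline and on lysine before they fold into a triple helix. The prolyl 4-hydroxylases consist of a catalytic alpha subunit, encoded by P4ha1, P4ha2 or P4ha3, and the beta subunit P4hb, which is also protein disulfide isomerase. Hydroxyproline holds the helix stable at body temperature, and the lysyl hydroxylases Plod1, Plod2 and Plod3 make the hydroxylysine on which sugars and crosslinks are placed. Serpinh1 (HSP47) is the chaperone of the folded procollagen helix, Bmp1 is the protease that removes the C-propeptide outside the cell, and Pcolce enhances that cleavage. These steps are run at a high rate by fibroblasts of fibrotic tissue.

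The sequences before the transcription start are shown for the 4 members Serpinh1, P4hb, Plod3 and Pcolce, which were higher in TAB on all 5 days and had a deposited detection p-value under 0.05 on all 10 arrays. They are the 250 bases before the annotated start of RefSeq on the mouse build GRCm38.p6, 5′ to 3′ on the strand of the gene, and 8 of the 10 members had an entry. Capitals mark matches, on either strand, to CCAAT, to ACGTG (the core of the hypoxia response element), to the GC box GGGCGG, to TATAAA and to the heat shock element GAANNTTC.

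Serpinh1 (chr7:99353240-99353489, minus strand): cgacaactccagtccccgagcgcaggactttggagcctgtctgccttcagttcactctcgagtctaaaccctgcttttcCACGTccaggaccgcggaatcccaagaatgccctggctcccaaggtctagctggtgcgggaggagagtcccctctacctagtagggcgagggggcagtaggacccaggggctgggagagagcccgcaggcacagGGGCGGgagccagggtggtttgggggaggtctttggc
P4hb (chr11:120573254-120573503, minus strand): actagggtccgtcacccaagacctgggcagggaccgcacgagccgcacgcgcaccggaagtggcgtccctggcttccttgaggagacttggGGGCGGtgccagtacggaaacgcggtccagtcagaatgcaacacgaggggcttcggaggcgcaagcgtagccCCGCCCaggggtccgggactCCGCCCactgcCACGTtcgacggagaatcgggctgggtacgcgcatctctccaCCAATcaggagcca
Plod3 (chr5:136986769-136987018, plus strand): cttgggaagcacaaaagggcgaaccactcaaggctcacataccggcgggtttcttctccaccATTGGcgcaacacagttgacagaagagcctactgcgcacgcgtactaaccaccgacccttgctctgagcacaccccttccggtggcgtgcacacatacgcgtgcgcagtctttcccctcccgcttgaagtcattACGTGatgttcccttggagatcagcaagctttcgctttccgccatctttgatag
Pcolce (chr5:137611405-137611654, minus strand): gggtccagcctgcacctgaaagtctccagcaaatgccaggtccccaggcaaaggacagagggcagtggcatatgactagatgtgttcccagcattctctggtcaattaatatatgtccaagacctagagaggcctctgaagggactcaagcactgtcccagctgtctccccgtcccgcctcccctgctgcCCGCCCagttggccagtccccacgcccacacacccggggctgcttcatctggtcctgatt

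ACGTG was present in 5 of the 8 member windows, those of P4ha1, P4ha2, P4hb, Plod3 and Serpinh1, and in 16.6% of all 32851 windows of the same length. GGGCGG was present in 7 of 8, with a share of 32.7% over all windows, and CCAAT in 2 of 8, P4hb and Plod3, with a share of 33.8%. TATAAA occurred only in the window of Plod1 among the 8, and GAANNTTC in none of them. The endoplasmic reticulum stress element, CCAAT and CCACG with 9 bases between them, was in none of the 8 windows and in 0.113% of all windows. The 8 member windows were 55.6% to 70.0% G or C, against a median of 52.4% over all windows. A match is a description of the letters and not of a bound site.

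Intensities are given after median scaling and quantile normalization, and a ratio is the difference of log2 intensity between TAB and sham of the same day. A probe was called when the TAB effect averaged over the 5 days, from limma with day as a block, had a Benjamini-Hochberg adjusted p under 0.05 over all 19976 probes kept. Of the 12 member probes 11, of 9 genes, were kept, and all 11 were found on all 10 arrays. The 4 probes called were those of Pcolce, Bmp1, Plod3 and P4hb, all higher in TAB, whereas 14.2% of all probes were called in either direction and 7.47% were called higher. Of all calls 52.6% were higher in TAB, and 66.4% or 65.5% with median scaling only or with quantile normalization within each operation. The median of the mean log2 ratios was 0.79 over the 11 member probes and -0.05 over all probes. Across the 11 member probes 6 were higher in TAB on every day, against 15.6% of all probes, and in 7 the averaged effect had an unadjusted p under 0.05, against 33.8% of all probes in either direction.

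**Figure D1:**
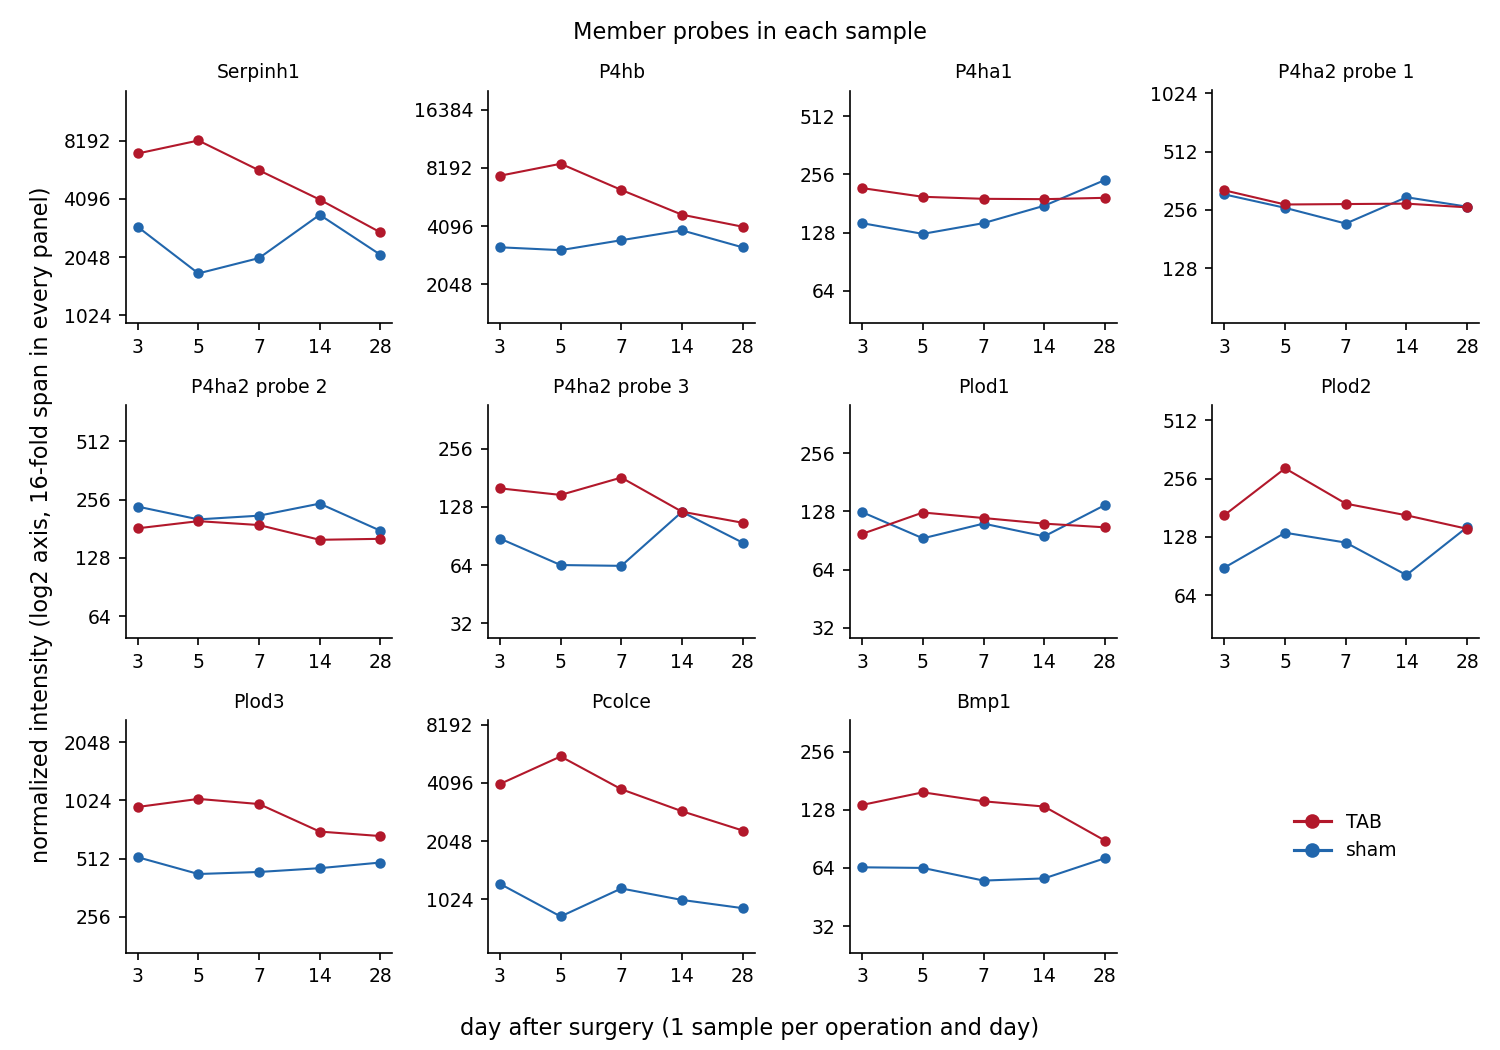
Normalized intensity (log2 axis, with the same 16-fold span in every panel) of each of the 11 member probes kept, by day after surgery with days spaced evenly; each point is 1 sample, TAB in red and sham in blue. Serpinh1, P4hb, Plod3, Pcolce, Bmp1 and P4ha2 probe 3 were higher in TAB on all 5 days, and Plod1 and P4ha2 probe 1 crossed between days.

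Of the prolyl 4-hydroxylase subunits P4hb was called, and no probe of P4ha1 or P4ha2 was. Differences between subunits were not tested. P4hb (probe mMC009971), the beta subunit, had normalized intensities of 7455, 8595, 6297, 4688 and 4063 in TAB on days 3, 5, 7, 14 and 28, and of 3180.2, 3074, 3460, 3891 and 3179 in sham. Every TAB sample lay above every sham sample, and the difference narrowed to 0.27 and 0.35 on the log2 scale on days 14 and 28. The mean log2 ratio was 0.84 ± 0.21, with an adjusted p of 0.0498 by limma. Each ± is the SE from limma, whose variance draws partly on all probes. The call of P4hb has almost no margin, since the adjusted p was 0.0508 with quantile normalization to the mean of each rank and 0.0521 to 0.137 with any 1 day left out.

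P4ha1 (probe mMC014205), the catalytic subunit usually the most abundant, lay between 190.8 and 217.7 in TAB. In sham it was 143.4, 126.3, 143.5 and 176.5 on days 3, 5, 7 and 14 and 239.6 on day 28. TAB was higher on the first 4 days and lower on day 28. Over the days the ratio averaged 0.29 ± 0.17 on the log2 scale, with an adjusted p of 0.277.

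The 3 probes of P4ha2, another catalytic subunit, disagreed. Probe 3 (PH_mM_0012371) was 159.5, 147.5, 181.4, 120.8 and 105.9 in TAB and 87.8, 64.0, 63.4, 120.6 and 83.6 in sham, with a mean log2 ratio of 0.79 ± 0.24 and an adjusted p of 0.0765. Its TAB values were higher on every day but overlapped with sham, through sham of day 14. Probe 3 was called at some alternatives, such as without the day as a block (adjusted p = 0.0270 by limma). It was not called at others, such as median scaling only (adjusted p = 0.0709 by limma). Probe 1 (PH_mM_0004334) had a mean log2 ratio of 0.07 ± 0.11 and an adjusted p of 0.707. Probe 2 (PH_mM_0007261) had a mean log2 ratio of -0.27 ± 0.13, was lower in TAB on all 5 days and had an adjusted p of 0.196. No direction for P4ha2 as a gene follows from these values.

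P4ha3 (probe mMC018530), the third catalytic subunit, was removed by the filter because its scaled intensity in sham of day 3 was under 1. Its raw intensity was 57, 120 and 96 in TAB of days 3, 5 and 7, where the spot was found, and 13 and 9 in TAB of days 14 and 28, where it was not. In sham the spot was found on none of the 5 arrays, and the raw intensity was 1, 8, 5, 5 and 4. P4ha3 was therefore found only on the early TAB arrays, and on these the deposited detection p-value was 1, 0.540 and 0.716, and with the spot not found on 7 of 10 arrays no fold is given.

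Among the lysyl hydroxylases, Plod3 rose, Plod2 missed the threshold and Plod1 had a mean ratio near 0. Plod3 (probe mMC002301), which also carries collagen glycosyltransferase activity, was 945.6, 1041, 979.1, 705.4 and 668.8 in TAB and 520.0, 425.7, 436.2, 456.3 and 488.0 in sham. All 5 TAB samples lay above all 5 sham samples, by at least 0.36 on the log2 scale. Plod3 had a mean log2 ratio of 0.88 ± 0.16, with an adjusted p of 0.0269. The adjusted p was 0.0865, 0.0838, 0.0961 and 0.0571 without day 3, 5, 7 or 14, which ended the call.

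Plod2 (probe mMC010264), whose product hydroxylates the telopeptide lysines that crosslinks start from, was 165.9, 289.3, 190.1, 165.5 and 140.9 in TAB and 88.8, 134.5, 119.6, 81.3 and 143.7 in sham. TAB was higher on days 3, 5, 7 and 14 and 0.03 lower on the log2 scale on day 28. The mean log2 ratio was 0.73 ± 0.19, with an adjusted p of 0.0516, and 0.0231 without day 28. It was called at 10 of the 12 alternatives that kept all 5 days and its probe, such as median scaling only (adjusted p = 0.0440). Plod1 (probe PH_mM_0008237), which hydroxylates lysines of the helix, had ratios from -0.38 on day 28 to 0.44 on day 5, and a mean of 0.00 with a 95% interval from -0.39 to 0.39. That interval holds differences of up to 0.39 in either direction.

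Serpinh1 (probe mMC021955) had normalized intensities of 7029, 8205, 5754, 4060.2 and 2749 in TAB and of 2935, 1686, 2024, 3388 and 2106 in sham. TAB was higher on each of the 5 days, with a ratio of 2.28 on day 5 and of 0.26 and 0.38 on days 14 and 28. The sham samples alone spanned 1.01 on the log2 scale, and sham of day 14 lay above TAB of day 28, so the groups overlapped. The mean log2 ratio was 1.14 ± 0.31, with an adjusted p of 0.0607, and 0.0289 without the day as a block. Of the 11 probes kept only that of Pcolce had a larger mean ratio, and Serpinh1 was not called.

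Both members of propeptide removal, which acts outside the cell, were called. Pcolce (probe mMC025751) was 4047, 5616, 3803, 2926 and 2326 in TAB and 1233, 835.9, 1167, 1018 and 922.9 in sham. The lowest TAB sample lay 0.92 above the highest sham sample on the log2 scale. The mean log2 ratio was 1.81 ± 0.22, a 3.49-fold difference, with an adjusted p of 0.0163. It was the only member called with day 5 left out (adjusted p = 0.0380) and with probes below 1 set to 1, while its adjusted p was 0.0723, 0.0764 and 0.0506 without day 3, 7 or 14.

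Bmp1 (probe PH_mM_0001257), the C-proteinase that Pcolce stimulates, was 135.6, 157.5, 141.5, 133.0 and 88.7 in TAB and 64.5, 64.0, 55.1, 56.5 and 71.9 in sham. All TAB samples lay above all sham samples, with the smallest difference on day 28. Its mean log2 ratio was 1.05 ± 0.18, with an adjusted p of 0.0259. Bmp1 was a dim probe: its spot was found on all 10 arrays, but its deposited detection p-value was 0.219 to 0.995 and so under 0.05 on none, as was that of P4ha2 probe 3, while those of Plod3, P4hb, Serpinh1 and Pcolce were under 0.05 on all 10. With 50 added to the intensity the mean log2 ratio of Bmp1 was 0.68 and its adjusted p 0.00782. The adjusted p was 0.0861, 0.0843, 0.0935 and 0.0628 without day 3, 5, 7 or 14, which ended the call.

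**Figure D2:**
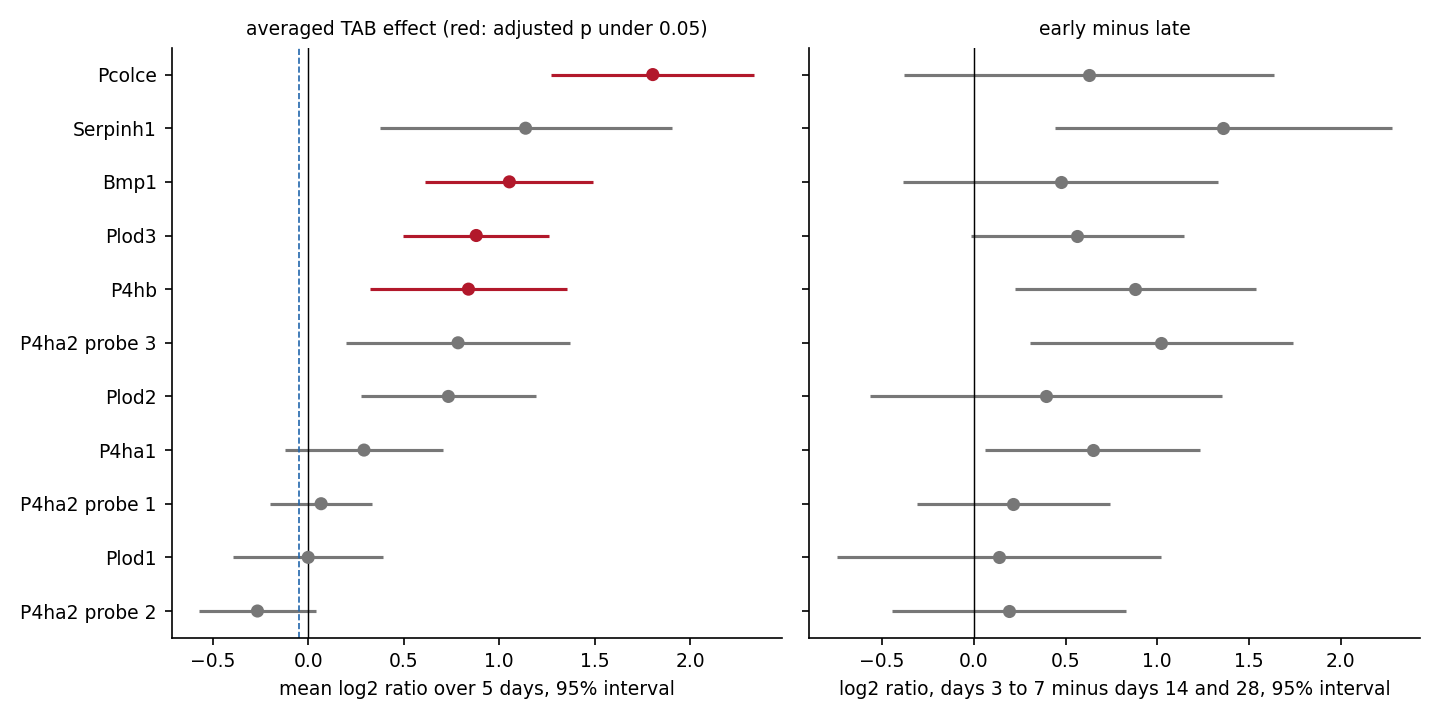
Left, mean log2 ratio of TAB over sham over the 5 days for each member probe with its 95% interval from limma; red marks an adjusted p under 0.05 and the dashed line the median of all probes, -0.05. Right, the ratio on days 3 to 7 minus that on days 14 and 28, with its 95% interval; Pcolce, Bmp1, Plod3 and P4hb are red on the left, and on the right the intervals of Serpinh1, P4ha2 probe 3, P4hb and P4ha1 lie above 0.

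The 5 TAB samples lay above the 5 sham samples for 4 member probes, Plod3, P4hb, Pcolce and Bmp1, and for 8.78% of all probes. The remaining 7 overlapped. These 4 are the probes that were also called. Without day 28 TAB lay above sham for 8 member probes, against 13.1% of all probes, and below sham for 1, P4ha2 probe 2.

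Ratios were highest in the first week. Of the 11 member probes 8 had their highest ratio on day 5, as did 19.7% of all probes, and the other 3, P4ha2 probes 1 and 3 and Bmp1, had it on day 7. Taken in order of the days, the median ratio of the members was 0.86, 1.20, 0.86, 0.26 and 0.30, while the median of all probes stayed between -0.08 and -0.02. On single days, where a probe was called when its ratio exceeded 2 SDs of that day, no member was called on days 3, 7 and 28, against 3.07%, 3.71% and 3.36% of all probes called higher. Pcolce fell just short on these days, at 1.72 against 1.75, 1.70 against 1.71 and 1.33 against 1.38. On day 5 the calls were Serpinh1, with a ratio of 2.28, and Pcolce, with 2.75, against a threshold of 1.87 that 3.77% of all probes passed. On day 14 Pcolce was called, with 1.52 against a threshold of 1.46 that 3.29% of all probes passed.

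**Figure D3:**
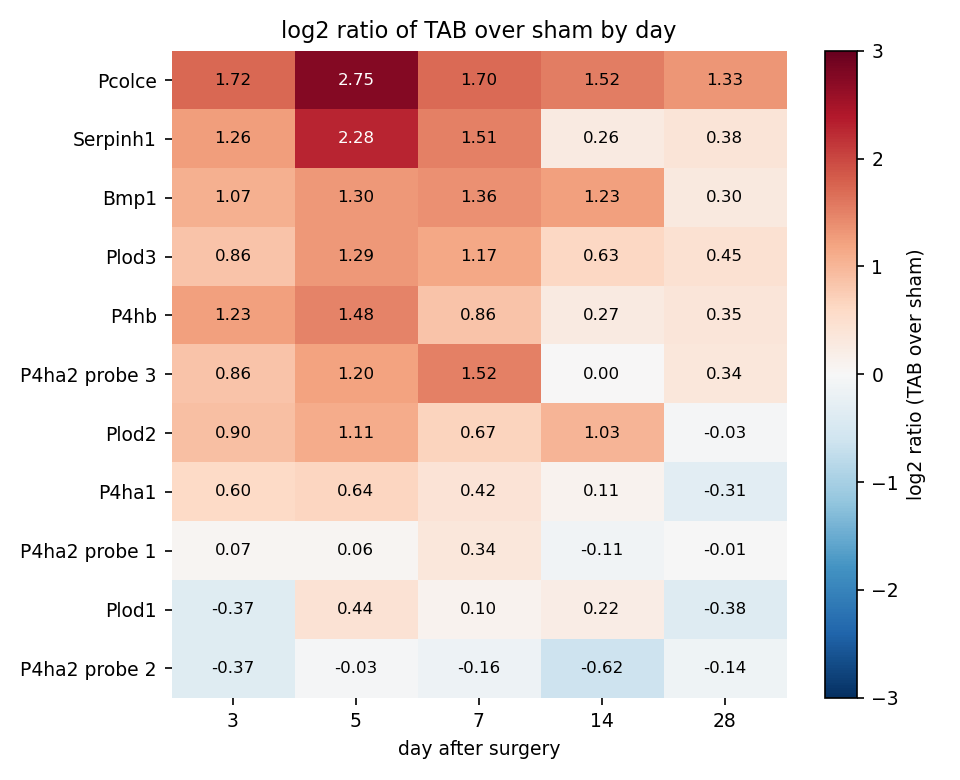
log2 ratio of TAB over sham for each member probe (rows, ordered by the mean over the days) and day after surgery (columns), with the value printed in each cell; red is higher in TAB and blue lower. Pcolce keeps ratios from 1.33 to 2.75 on every day, while the ratios of Serpinh1 and P4hb fall from 2.28 and 1.48 on day 5 to 0.26 and 0.27 on day 14.

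The ratio was larger on days 3 to 7 than on days 14 and 28 for all 11 member probes. The sign depended on the days included for some: without day 28 the difference was -0.13 for Plod2 and -0.16 for Plod1, without day 5 it was -0.06 for Plod1, without day 14 it was -0.048 for P4ha2 probe 2, and with only days 3 and 5 as early it was -0.0075 for P4ha2 probe 1. That of Bmp1 kept its sign but was 0.0096 without day 28. For Serpinh1 it was 1.68 early and 0.32 late, a difference of 1.36 ± 0.36. For P4ha2 probe 3 the difference was 1.02 ± 0.28, for P4hb 0.88 ± 0.26 and for P4ha1 0.65 ± 0.23. These 4 had an unadjusted p under 0.05 by limma, from 0.0125 to 0.0359, as had 6.03% of all probes in the same direction, and the smallest adjusted p was 0.432. With only days 3 and 5 as early 1 member had an unadjusted p under 0.05 and the difference of P4ha2 probe 3 was 0.41 ± 0.50, and without day 28 there were 2 such members. No probe of the array was called for this difference, although 2086 of 19976 had an unadjusted p under 0.05 and the trend and robust options of eBayes gave 35 calls, none of them a member, so a change with time was not established for any member. For Pcolce the difference was 0.63, with a 95% interval from -0.38 to 1.64, and 0.28 without day 5.

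The other collagen modifying and folding enzymes were read from a list of 16 genes, all tested. Of these 8 rose, none fell, and the median of the mean log2 ratios was 0.54. None of these calls remained without day 3, 5, 7 or 14, and 7 genes were called without day 28. Over the 13 lists of genes used here 52 of 149 genes tested were called, against 1, 5, 3, 12 and 48 without days 3, 5, 7, 14 and 28, when 13, 35, 23, 184 and 2773 probes were called over the whole array. The largest ratios among the modifying enzymes called were those of Fkbp10, a prolyl isomerase of the endoplasmic reticulum that assists procollagen folding, at 1.08 ± 0.21 (adjusted p = 0.0313 by limma), and Fkbp14, of the same family, at 0.99 ± 0.23 (adjusted p = 0.0431 by limma).

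In the list of procollagen processing and secretion genes 4 of 14 tested rose and none fell, with a median of 0.05. The largest were Sparc, a collagen-binding matricellular protein, at 1.65 ± 0.16 (adjusted p = 0.0139 by limma), and Adamts2, the procollagen N-proteinase, at 1.56 ± 0.20 (adjusted p = 0.0178 by limma).

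The substrates of the members are the procollagen chains. Of 10 fibrillar procollagen chains tested 5 rose and none fell, with a median of 1.19. Only 4 of these chains had a found spot on each of the 10 arrays, with a median of 1.60 and 2 of them called, and 2 chains had no found spot at all. Col3a1, the chain of collagen III, had a mean log2 ratio of 3.68 ± 0.48 (adjusted p = 0.0178 by limma), with its spot found on 4 of the 5 sham arrays, and Col1a2, a chain of collagen I, one of 3.49 ± 0.35 (adjusted p = 0.0142 by limma). Whether the medians of the 2 lists differ was not tested.

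General folding genes of the endoplasmic reticulum and hypoxia-induced genes were set beside the members because P4hb serves general folding and several hydroxylases are known targets of the hypoxia response. Of 17 general folding genes 1 rose, Pdia5 (1.27 ± 0.26), a disulfide isomerase, and 1 fell, Canx (-0.63 ± 0.13), a lectin chaperone, with a median of 0.14. Of 16 hypoxia-induced genes 1 rose, Pfkfb4 (0.67 ± 0.12), a regulator of glycolysis, and 1 fell, Egln1 (-0.56 ± 0.12), the oxygen-sensing prolyl hydroxylase, with a median of 0.02.

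**Figure D4:**
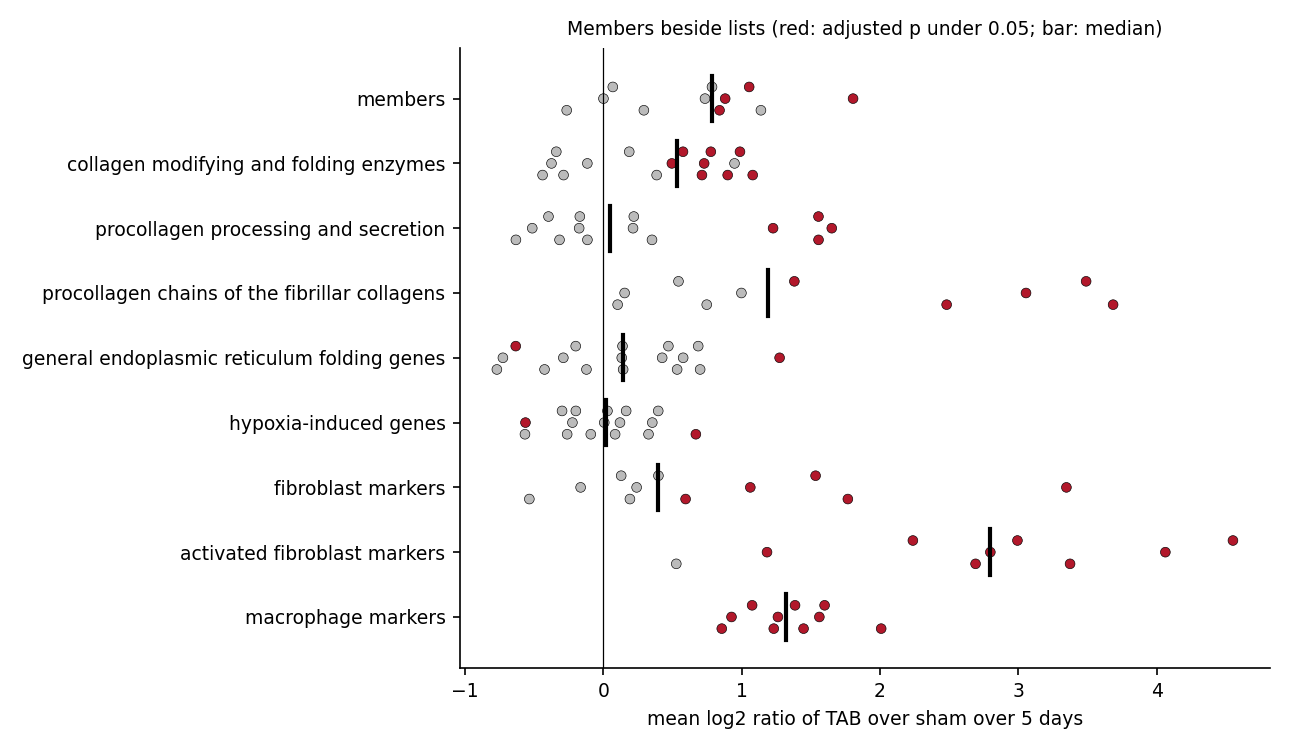
Mean log2 ratio of TAB over sham over the 5 days for the member probes and for the genes of 8 lists; each point is 1 probe or gene, red marks an adjusted p under 0.05, the bar marks the median and points are offset vertically only to separate them. The median was 0.79 for the members, 0.54 for the modifying enzymes and 1.19 for the fibrillar chains, of which 4 of 10 were found on all 10 arrays.

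Markers of macrophages, fibroblasts and dividing cells were called as well, and whether they moved with the members was not tested. Of 10 macrophage markers tested all 10 rose, with a median of 1.32, all found on all 10 arrays, although none was called without day 3, 5 or 7 and 2 without day 14, and their summed intensity was 12077 to 29039 in TAB and 6872 to 8553 in sham. Of 9 activated fibroblast markers 8 rose, with a median of 2.80 and a summed intensity of 10746 to 26905 in TAB and 2316 to 2871 in sham. Over the 6 of them found on all 10 arrays 5 rose and the median was 2.52. Of 11 fibroblast markers 5 rose, with a median of 0.40 and a sum of 61617 to 77512 in TAB and 49690 to 54755 in sham and mean log2 ratios from -0.54 (Gsn) to 3.35 (Mfap5). Dividing cell markers rose in 3 of 8, with a sum of 537.7 to 2036 in TAB and 301.4 to 561.9 in sham. Of the 3 that rose, only Aurkb was found on all 10 arrays, as were 2 markers that were not called. The part of these cells in the ratios of the members was not tested, and in bulk tissue more cells of a type and more RNA per cell cannot be told apart.

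Among the remaining cell types, none of 10 endothelial markers was called, with a median of 0.09 and a sum of 14308 to 19127 in TAB and 14113 to 17112 in sham, 2 of 8 smooth muscle and pericyte markers rose with a median of 0.10, and 1 of 12 cardiomyocyte markers, Nppa, rose (1.81) with a list median of -0.14. Of 8 lymphocyte markers, of which 3 were found on all 10 arrays, 1 rose, found on no sham array, and 1 fell, and the median was -0.06 over the 8 and -0.49 over those 3.

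**Figure D5:**
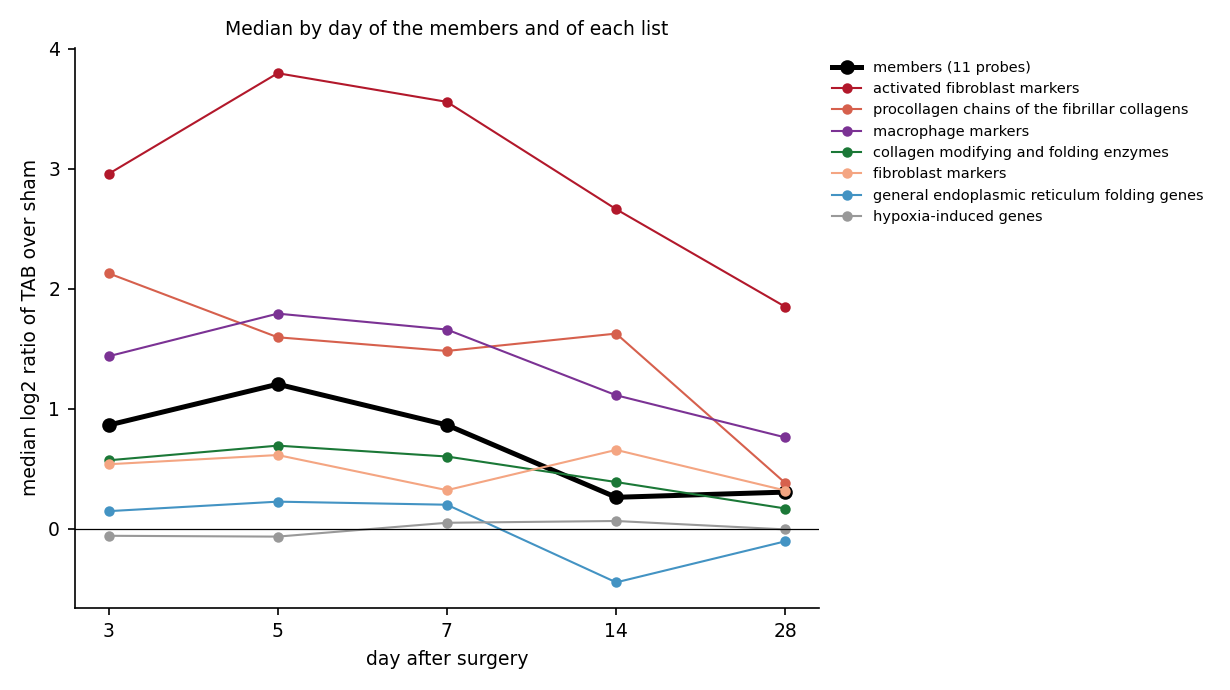
Median log2 ratio of TAB over sham on each day after surgery (days spaced evenly) for the 11 member probes, in black, and for 7 lists of genes. The medians of the members, of the activated fibroblast markers and of the macrophage markers are highest on day 5, at 1.20, 3.80 and 1.79, and those of the hypoxia-induced genes stay near 0 on all days. The medians of the fibrillar chains and of the fibroblast markers are highest on days 3 and 14, at 2.13 and 0.66.

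The genes whose ratios by day were most like those of Serpinh1 were sought among 12049 probes of named genes outside the members found on all 10 arrays, by the root mean square difference over the 5 days. They were Cnn2 (0.14), an actin-binding calponin, Tubb2a (0.16), a beta tubulin, Rhoc (0.18), a small GTPase, Gusb (0.23), a lysosomal glucuronidase, and Cd48 (0.24), a leukocyte surface protein. Among the members P4hb was nearest, at 0.46, and P4ha2 probe 3 and Plod3 followed at 0.53. Their distances ranked at percentiles 1.09, 2.02 and 2.04 of the probes compared, and that of P4ha2 probe 2, the farthest member, at 62.1.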

How the data were processed

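RNA was amplified, labelled with Cy5 and hybridized to Mouse Whole Genome OneArray v2 arrays, and the authors deposited a raw intensity, a detection p-value and a flag per probe and array from GenePix. How background was subtracted and the detection p-value computed is not given in the sources used here, nor is the meaning of the flag, whose negative values were read as spots not found. The 3633 probes without a symbol stayed in the fits and out of gene searches. The number of arrays limits the precision.

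Following the study, intensities were scaled to a common median and probes under 1 in any sample were removed (6447 of 26423). Quantile normalization used the median at each rank over all 10 samples, followed by log2; the study's methods take that median for each condition, which was run as an alternative. The study states that 1 probe per gene was kept by its fold changes; probes were tested here instead, since that choice would bias a test. limma 3.58.1 (lmFit, eBayes, trend and robust off) in R 4.3.3 tested the averaged TAB effect and the early minus late difference with day as a block. P-values and SEs measure the spread over the days, with a variance that eBayes draws partly from all probes. That spread may include differences between mice and arrays. Samples were paired by day, as the study forms its ratios; the deviations of same-day samples correlated with r = 0.112 on day 3 and 0.00148 to 0.0466 on the other days. Python 3.11.15 with pandas 2.3.3, numpy 2.4.6 and matplotlib 3.10.9 did the rest, and the fits were tested on simulated data.

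Named were all member probes and, in each pathway or context list, the 2 called genes that differed most in each direction. Marker lists were given by count, with the median, the summed intensity or both, and the 5 genes nearest to Serpinh1 were named. Gsn, Mfap5, Aurkb, Nppa and Herpud1 were named after their values were seen, and Myh6 and Tnnt2 as examples. The members and lists were chosen with earlier results of these data known. Alternatives covered the normalization, the filter, an added 50, the handling of several probes, the block, the eBayes settings and each day left out. Promoter sequences came from RefSeq (GRCm38.p6). The miRNA arrays were not analysed here.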

Additional observations from a re-analysis of the deposited data

Results flagged for a closer look

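In 2 of the 22 groups of 5 samples tested for a sample far from the others, the TAB sample of day 3 stood apart as the highest. For P4ha1 its gap to the next sample took up 0.785 of the range of the TAB samples, against a critical value of 0.71, at a normalized intensity of 217.7. For P4ha2 probe 1 the gap was 0.783 of the range, at 323.2. Chance flags about 1 in 20 groups, and the TAB samples of P4ha1 spanned only 190.8 to 217.7. Neither probe was called for the averaged effect.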

How the results depend on the processing

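The median of the mean log2 ratios of the members was 0.54 to 1.01 over the alternatives, against 0.79, the highest being over the 4 probes left with a detection p-value under 0.05 on all 10 arrays. The 4 members called kept a positive ratio wherever they were tested, which for Bmp1 leaves out that setting. Settings are compared by the number of member probes called for the averaged effect, 4 in the report, and by that of all probes, 2836 of 19976 tested. Both counts rose with 50 added to the intensity (7 and 4890), without the lowest tertile of probes (7 and 4377, of 13317 tested), with only probes found on all 10 arrays (7 and 4377, of 12654 tested) and with the trend and robust options of eBayes (7 and 4726). Without the day as replicate block the counts were 7 and 3875. The added calls were Serpinh1, Plod2 and P4ha2 probe 3 at each of these 5 settings. With median scaling only 5 members and 2631 of all probes were called, and at the 3 settings with 1 value per gene 5 and 2673 to 2859, Plod2 being added. Quantile normalization within each operation gave 6 and 2835, Plod2 and Serpinh1 being added, and the mean of each rank 3 and 2825, P4hb being lost. With only probes of a detection p-value under 0.05 on all 10 arrays, chosen after seeing the data, 1738 of all probes were called, since 4224 were tested, and 4 members, P4hb, Pcolce, Plod3 and Serpinh1. With probes below 1 set to 1 the counts were 1 of 12 member probes and 371 of 26423. With 1 day left out they ranged from 0 to 4 and from 13 to 2773, and the cause was not tested. No member was called without day 3, 7 or 14, and without day 28 the calls were Plod3, Plod2, Pcolce and Bmp1.

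For the early minus late difference the trend and robust options gave 35 calls among all probes and 0 among the members, and the other alternatives gave 0 for both. Some differences that were not called changed sign. The mean ratio of Plod1 was -0.0020 with 50 added, and ranged from -0.11 to 0.10 with a day left out. The early minus late difference was -0.0075 for P4ha2 probe 1 with only days 3 and 5 as early, and with a day left out it ranged from -0.048 (without day 14) to 0.43 for P4ha2 probe 2, from -0.16 (without day 28, and -0.06 without day 5) to 0.44 for Plod1 and from -0.13 (without day 28) to 0.92 for Plod2. That of Bmp1 ranged from 0.0096 (without day 28) to 0.94 (without day 14). TAB lay above sham without overlap for 4 to 8 member probes with a day left out, when it did for 10.3% to 13.1% of all probes, and below sham for 1 (P4ha2 probe 2, without day 28).

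The calls on single days, 0, 2, 0, 1 and 0 on days 3, 5, 7, 14 and 28, also moved. The count was 1 on days 3 and 7 with median scaling only, and 1 on days 3, 7 and 28 with quantile normalization within each operation or with the mean of all probes of a gene. It was 3, 4, 4, 2 and 1 with 50 added, and 1 on days 3 and 7 and 0 on day 14 with probes below 1 set to 1. This last setting tested 12 member probes, with P4ha3 added, and the calls on days 3 and 7 were of P4ha3. On days 3, 5 and 7 its normalized intensity was 78.6, 115.9 and 97.7 in TAB. In sham it was 1.00, 8.57 and 5.79, with the spot not found. P4ha3 was also called on day 5, where the count stayed at 2, so Serpinh1 and Pcolce were not both called. Without the lowest tertile the count was 1, 3, 2 and 1 on days 3, 7, 14 and 28, with probes found on all arrays 2, 3, 4, 3 and 1 on the 5 days, and with detected probes only 3, 3, 3, 1 and 1. It was 1 on days 7 and 28 with the brightest probe of a gene. A threshold of 1 on the log2 ratio gave 4, 7, 5, 3 and 1. The threshold follows the SD of the day: it was 1.38 to 1.87 in the report and 0.68 to 1.07 with 50 added, and 5.40% to 5.91% and 4.40% to 5.17% of all probes were called in either direction. At the other settings of 2 SDs 3.93% to 7.26% of all probes were called on a day, and 11.3% to 20.5% with the threshold of 1. Signal over background limits Bmp1, P4ha1, P4ha2, P4ha3, Plod1 and Plod2, whose detection p-value was under 0.05 on 0 or 2 of the 10 arrays.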
